A study of Rattus norvegicus with 144 samples.

Results

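Collagens, laminins and nidogens are the structural proteins of the extracellular matrix, and 57 genes of the anterior cingulate cortex of Long Evans rats encode them in the data described here. They are the protein-coding genes, 57 of 45785 genes in the table and of 23154 protein-coding ones, whose symbol is that of a collagen alpha chain (44 genes), a laminin alpha, beta or gamma chain (11 genes) or a nidogen (2 genes). By the structure of the protein, 11 are fibrillar collagens and 21 are proteins of the basement membrane (the chains of collagen IV, Col15a1, Col18a1, the laminins and the nidogens). A further 9 are fibril-associated collagens and 4 are transmembrane collagens. The other 12 form a mixed group, called here beaded filament and network collagens, which also holds Col7a1 and Col26a1. The rule uses gene names only.

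The cortex came from female and male rats at postnatal day 42, called adolescents, or postnatal day 90, called adults. Before birth, they had 1 of 3 conditions: ethanol (PAE), pair-fed (PF) or a free-choice liquid diet (FCL). In adolescence they then had alcohol (AAE) or water (VEH). The adolescent brains were taken a day after the last of these exposures and the adult brains with no further challenge. RNA sequencing gave libraries in 24 groups of 4 to 7, which are 34 from adolescent females, 35 from adult females, 39 from adolescent males and 36 from adult males. All groups are Long Evans rats as far as the labels say. The labels do not name litters, or say whether each library is from a separate animal, so a p-value measures the spread between these libraries.

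Fibrillar collagens assemble into banded fibres, which in the brain lie mainly in the meninges and around larger vessels. Basement membranes are thin sheets under the pial surface and around brain vessels: laminin trimers polymerise into a network, collagen IV forms a second network, and nidogens bridge them. Endothelial cells, pericytes, perivascular fibroblasts and astrocyte endfeet all contribute to them. Some transmembrane collagens are instead made by neurons, among them Col25a1, whose shed part is known from amyloid plaques.

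Total counts per library ran from 10569296 to 34370169. Summed CPM (counts scaled to a library's total) of 6 neuronal markers, Slc17a7 and Snap25 among them, lay between 3840 and 9313 in every library. A set of 5 libraries stood apart from the rest or from their labels. Female FCL AAE adult replicate 1 and male PF VEH adolescent replicate 6 carried markers of olfactory mucosa, with 258 and 398 CPM of the olfactory marker Omp, whose median over all libraries was 0.081. Xist was at 0.993 CPM in female PF AAE adolescent replicate 4 and at 379 CPM in male PAE VEH adolescent replicate 4. Female PF VEH adult replicate 6 had the fewest detected genes. Of these, female FCL AAE adult replicate 1 bears most on the members, with 1426 CPM of Col1a1 against a median of 46.5 in the other libraries. Results are given with all libraries, and changes of call in the age comparison without these 5 are named.

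Levels are compared between genes as the authors' FPKM, which is scaled by gene length and library total, and within a gene as CPM after TMM scaling. Over all libraries the highest median FPKM was that of Col1a2, the alpha 2 chain of collagen I, at 14.53. It was followed by Col6a1 of the beaded filaments at 8.57, the fibrillar Col11a2 at 8.22, the transmembrane Col25a1 at 8.09 and Col1a1 at 7.93. The laminin chains Lamb1, Lamb2 and Lamc1 had 7.92, 7.65 and 6.33, and the collagen IV chains Col4a2 and Col4a1 had 5.89 and 3.63. From Col6a1 to Lamb2 the medians lie within each other's range over libraries, so the order of these neighbours is not fixed. In all, 29 members had a median above 1 FPKM and 5 one below 0.1, which were Col2a1, Col6a4, Col17a1, Col22a1 and Col6a5. Fibrillar collagens made up 35.2% and basement membrane members 35.1% of the summed medians of the 57 genes.

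**Figure D1:**
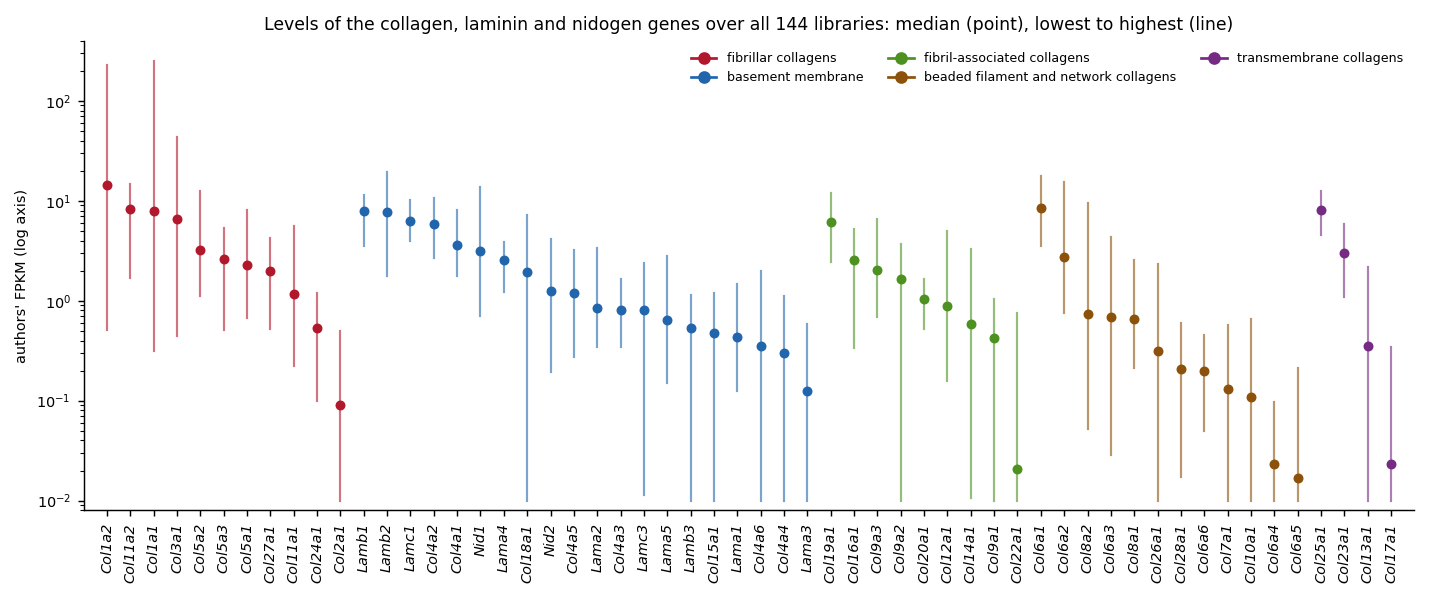
The authors' FPKM on a log axis for the members reported here, grouped by class and ordered by median. Points are medians over all libraries and lines run from the lowest to the highest library, with values under 0.01 drawn at 0.01. Col1a2 has the highest median (14.53), and Col1a1 the highest single value (249).

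The collagen I chains had the widest range of the well-expressed members. Col1a1 ran from 0.317 to 249 FPKM over all libraries and to 80.02 without the 5 that stood apart, whereas Lamb1 ran from 3.56 to 11.5. As SD of log2 CPM within a sex and age, with the 5 libraries left out, Col1a2 had 1.36, Col3a1 1.32, Col1a1 1.31 and the network collagen Col8a2 1.29. The basement membrane members Lamb1, Lamc1 and Col4a2 had 0.22, 0.24 and 0.26, and the transmembrane Col25a1 0.22. Class medians of this SD were close together, at 0.51 for fibrillar and 0.47 for basement membrane members.

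The first question of the series title is how the cortex changes between adolescence and adulthood in each sex. In females 11 of the 55 tested members fell and none rose, led by Col4a1 and Col4a2, the main collagen IV chains of vessels. In males 19 fell, among them the same collagen IV chains and both nidogens, and Col25a1 alone rose. The comparison is a contrast in a fit of all libraries by edgeR's quasi-likelihood test with Benjamini-Hochberg adjustment over 20137 genes. A gene is called where the adjusted p is under 0.05, a log2 fold change is adult over adolescent, and ± is its standard error. Col17a1 and Col6a4 had too few counts to be tested.

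In females, where 11 of 55 members were called, 9.02% of all genes were (4.21% lower and 4.81% higher). In males, where 36.4% of the members were called and 34.5% were lower, 13.1% of all genes were called (6.11% lower and 6.95% higher). The median log2 fold change of the members was -0.24 in females and -0.29 in males, with 46 and 50 of 55 below 0. Over all genes tested the medians were -0.00 and -0.01, with 50.5% and 52.3% below 0. Of the calls, 9 were made in both sexes, which is 81.8% of the female calls and 9 of the 20 male calls, and 33 members were called in neither. The overlap of the sexes over all genes was not counted, so whether this overlap is particular to the members is not known. With 2 surrogate variables in the fit 26 members fell in females and 21 in males. With only PF VEH and FCL VEH libraries 2 (Col4a1 and Col4a2) fell in females and 7 in males. Without the 5 libraries that stood apart, 16 members were called in females, all lower, and 22 in males. The added calls were Col11a1, Col1a1, Col24a1, Col5a2 and Nid1 in females and Col19a1 and Col5a1 in males, and no call was lost. With female PF AAE adolescent replicate 6 left out as well, 12 were called in females, with Col24a1 and Col5a2 added and Lamc1 lost.

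By class, 5 of 21 basement membrane members fell in females and 10 of 21 in males. Over all genes tested, 4.21% were called lower in females and 6.11% in males. Within the class, 4 of 8 collagens and 1 of 13 laminin chains and nidogens fell in females. In males it was 5 of 8 and 5 of 13. These counts depend on the threshold, as Nid1 was also called in females without the 5 libraries that stood apart. Fibrillar collagens fell in 2 of 11 cases in females and 5 of 11 in males. Of fibril-associated collagens 2 of 9 fell in each sex, and of beaded filament and network collagens 2 of 11 in each sex. None of the 3 transmembrane collagens tested was called in females. Whether the classes, or these parts of the basement membrane class, differ from each other was not tested.

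**Figure D2:**
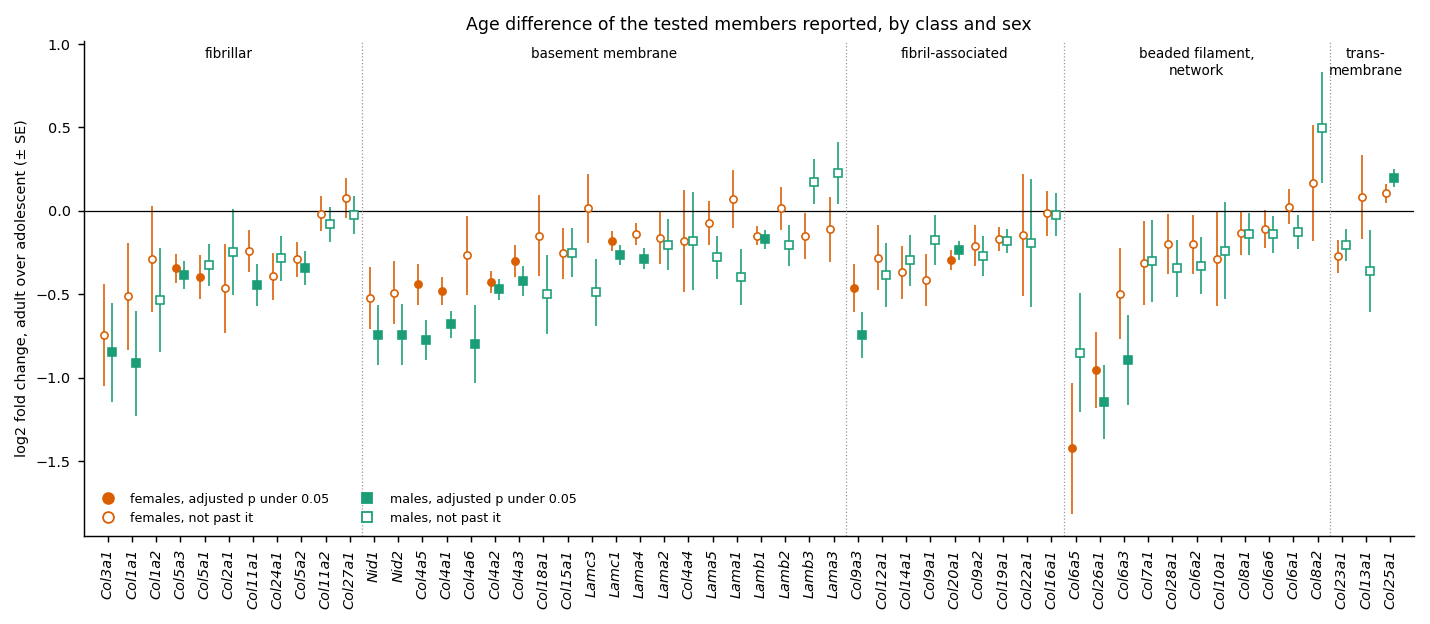
Log2 fold change of adults over adolescents, with its standard error as a bar, for the tested members reported here, by class. Circles are females and squares males, and filled symbols have an adjusted p under 0.05. Filled symbols lie below 0 for 11 members in females and 19 in males, and above 0 for Col25a1 in males.

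Collagen IV is the network-forming collagen of every basement membrane, and its chains are encoded in 3 head-to-head pairs. Col4a1 and Col4a2 are transcribed away from each other on rat chromosome 16, from starts with 76 bases between them in GRCr8, the build whose coordinates the table's genes match. The whole interval is shown because both genes lead the age comparison. It is written on the plus strand, the strand of Col4a1, with a GC box (GGGCGG or its complement CCGCCC) in capitals.
Col4a1 and Col4a2, chr16:84885521-84885596: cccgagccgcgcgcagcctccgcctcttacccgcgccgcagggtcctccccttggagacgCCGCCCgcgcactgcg
The gaps of the other pairs are wider, with 412 bases between Col4a3 and Col4a4 on chromosome 9 and 1263 bases between Col4a5 and Col4a6 on the X chromosome.

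Col4a1 ranged from 16.5 to 44.001 CPM in adolescent females (median 26.4) and from 11.8 to 34.01 in adult females (median 18.5). In males it ranged from 19.7 to 51.9 (median 28.99) and from 11.7 to 34.43 (median 19.6). The groups overlap, but the adult medians are near the lowest adolescent libraries. Its log2 fold change was -0.48 ± 0.09 in females (adjusted p = 1.74e-05) and -0.68 ± 0.08 in males (adjusted p = 1.52e-10), and the adult median was lower in 11 of the 12 pairs of groups with the same sex and treatments. Col4a2 had medians of 41.9 and 31.4 CPM in adolescent and adult females, with ranges of 24.4 to 54.3 and 22.1 to 43.2. In males its medians were 44.02 and 32.2 CPM, with ranges of 27.5 to 67.1 and 17.2 to 44.8. It fell by 0.42 ± 0.06 in females (adjusted p = 3.04e-07) and by 0.47 ± 0.06 in males (adjusted p = 2.29e-09) on the log2 scale, with a lower adult median in all 12 pairs.

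Col4a3 and Col4a5 encode chains best known from the kidney's filtration barrier. Col4a5 had medians of 15.8 and 11.6 CPM in adolescent and adult females (6.38 to 38.1 and 3.22 to 24.4) and of 17.2 and 11.4 in males (11.6 to 39.1 and 4.98 to 23.1). Its log2 fold change was -0.44 ± 0.12 in females (adjusted p = 0.0121) and -0.77 ± 0.12 in males (adjusted p = 4.44e-07). Col4a3 was lower at 7.35 and 5.79 CPM (medians) in females and 7.97 and 6.001 in males, and fell by 0.30 ± 0.09 and by 0.42 ± 0.09 (adjusted p = 0.0253 and 3.25e-04). Col4a6 was called in males and not in females, at -0.80 ± 0.24 (adjusted p = 0.0123) against -0.27 ± 0.24 in females (adjusted p = 0.562). Col4a4 was not called, and its mean of 6.0 counts per library leaves little to compare.

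The laminin trimers of brain vessels combine an alpha chain with Lamb1 or Lamb2 and with Lamc1. Promoter windows from RefSeq (GRCr8) were found for 45 of the 57 members, each with 250 bases before a start. For some members this start lies inside the gene's annotated span. The Lamb1 and Nid1 windows shown lie wholly within their genes, whose spans begin at 53562849 and 93069013. The last 100 bases before the start are shown for Lamb1 and Lamc1, the most even basement membrane members, and for Nid1, which bridges laminin and collagen IV and varies more, each on its gene's own strand with GC boxes in capitals.
Lamb1, chr6:53562996-53563095, plus strand: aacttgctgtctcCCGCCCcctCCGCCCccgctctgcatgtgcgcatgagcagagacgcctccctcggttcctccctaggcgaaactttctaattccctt
Lamc1, chr13:68051987-68052086, minus strand: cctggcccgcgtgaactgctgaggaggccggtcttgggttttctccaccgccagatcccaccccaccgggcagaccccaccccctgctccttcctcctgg
Nid1, chr17:93069186-93069285, plus strand: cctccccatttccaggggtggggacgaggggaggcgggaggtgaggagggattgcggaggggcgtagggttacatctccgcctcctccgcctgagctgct
Over the whole 250 bases, 12 of 18 basement membrane and 6 of 8 fibrillar windows hold a GC box on either strand, against 32.4% of the windows of 27457 genes. Over all members it is 25 of 45 (55.6%), with 2 of 5 fibril-associated, 4 of 11 network and 1 of 3 transmembrane windows. The CCAAT letters stand in 14 of the 45 windows (31.1%, against 34.3%) and TATAAA in 5 (11.1%, against 13.1%). These are matches of letters only. The 76 bases between Col4a1 and Col4a2 lie in both of their windows, so the GC box there counts for both genes. The 27457 genes were not matched to the members for GC content or gene type. They outnumber the 23154 protein-coding genes of these data, whereas all members are protein-coding.

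Lamc1 had medians of 49.3 and 45.4 CPM in adolescent and adult females (35.5 to 72.4 and 28.8 to 63.6) and of 55.3 and 44.5 in males (39.5 to 77.4 and 31.6 to 66.8). It fell by 0.18 ± 0.06 in females (adjusted p = 0.0421) and by 0.26 ± 0.06 in males (adjusted p = 5.63e-04). A pseudogene overlaps 73116 bases of its span on the same strand, so its counts are uncertain. Lamb1 fell in males, by 0.17 ± 0.06 (adjusted p = 0.0269), and had -0.15 ± 0.06 in females (adjusted p = 0.0893). Lama4, the laminin alpha chain of vessel endothelium, likewise fell in males by 0.29 ± 0.06 (adjusted p = 6.88e-04) and had -0.14 ± 0.07 in females (adjusted p = 0.200). Without the low-count filter the male call for Lamb1 is not made, nor are the female calls for Lamc1, Col5a1 and Col9a3. Without the 5 libraries and female PF AAE adolescent replicate 6, female Lamc1 had -0.16 ± 0.06 (adjusted p = 0.0616).

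Nid1 ranged from 9.95 to 84.9 CPM in adolescent females (median 21.5) and from 5.89 to 50.5 in adults (median 14.7). In males the ranges were 12.4 to 65.2 (median 24.95) and 4.41 to 48.8 (median 14.4). Adolescent and adult libraries overlap over most of these ranges in both sexes. Nid1 fell in males by 0.74 ± 0.18 (adjusted p = 0.00169) and had -0.52 ± 0.18 in females (adjusted p = 0.0572), or -0.55 ± 0.19 without the 5 libraries (adjusted p = 0.0415) and -0.46 ± 0.19 without female PF AAE adolescent replicate 6 as well (adjusted p = 0.103). Nid2 went the same way, with -0.74 ± 0.18 in males (adjusted p = 0.00207) and -0.49 ± 0.19 in females (adjusted p = 0.0833). Its counts are uncertain, since 14 pseudogenes and related genes in the table carry its name.

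The other vessel and pial laminins were not called in either sex. Lama1, found mainly in the pial basement membrane, had 0.07 ± 0.17 in females (adjusted p = 0.864) and -0.39 ± 0.17 in males (adjusted p = 0.111). Lama2, of pericytes and astrocyte endfeet, had -0.16 ± 0.16 and -0.20 ± 0.15 (adjusted p = 0.600 and 0.430). Lama5, the alpha chain of the other endothelial laminin, had -0.07 ± 0.13 and -0.28 ± 0.13 (adjusted p = 0.813 and 0.143). For Lamb2, with medians between 42.9 and 45.9 CPM in the 4 combinations of sex and age, the values were 0.0150 ± 0.13 and -0.21 ± 0.12 (adjusted p = 0.966 and 0.292). The interval of 1 standard error around the female Lama1 and Lamb2 values holds 0, and their sign changed under other settings.

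Among fibrillar collagens, Col5a3 fell in both sexes. This chain of collagen V, a collagen that sets the width of collagen I fibrils, is shown with the collagen I chain Col1a2 for the 100 bases before the start, since the former was called and the latter was not. GC boxes are again in capitals, and each is on its gene's strand. Part of the Col5a3 window lies within the gene's annotated span, which ends at 27626002.
Col5a3, chr8:27625949-27626048, minus strand: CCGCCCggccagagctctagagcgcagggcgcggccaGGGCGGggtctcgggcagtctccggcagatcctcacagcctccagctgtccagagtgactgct
Col1a2, chr4:33518457-33518556, plus strand: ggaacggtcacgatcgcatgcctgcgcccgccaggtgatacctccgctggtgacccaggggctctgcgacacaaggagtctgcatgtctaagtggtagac
Col1a2 has no GC box in its 250 bases. Whether GC boxes go with the age calls was not tested.

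Col5a3 had medians of 18.8 and 15.7 CPM in adolescent and adult females (11.2 to 28.5 and 3.29 to 25.02) and of 20.4 and 16.1 in males (14.9 to 36.4 and 8.86 to 26.7). Its log2 fold change was -0.34 ± 0.09 in females (adjusted p = 0.00427) and -0.38 ± 0.08 in males (adjusted p = 4.59e-04), with a lower adult median in all 12 pairs. Col5a1, the main collagen V chain, fell in females by 0.39 ± 0.13 (adjusted p = 0.0394) and had -0.32 ± 0.13 in males (adjusted p = 0.0753), or -0.34 ± 0.12 without the 5 libraries (adjusted p = 0.0363). Col11a1 fell in males by 0.44 ± 0.13 (adjusted p = 0.00808) and Col5a2 by 0.34 ± 0.10 (adjusted p = 0.0128), against -0.24 ± 0.13 and -0.29 ± 0.10 in females (adjusted p = 0.259 and 0.0634). Without the 5 libraries the female values were -0.35 ± 0.12 and -0.40 ± 0.10 (adjusted p = 0.0477 and 0.00263), and Col24a1 had -0.43 ± 0.14 (adjusted p = 0.0362). With female PF AAE adolescent replicate 6 left out too, female Col11a1 had an adjusted p of 0.1.

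Col1a1 had a median of 60.3 CPM in adolescent females, with a range of 11.6 to 467. In adult females its median was 33.0, with a range of 5.25 to 1426 whose top is the olfactory-marked library. In males the medians were 61.7 and 36.6 CPM, with ranges of 14.3 to 239 and 1.88 to 173.6. The ranges overlap almost entirely, and the male fall of 0.91 ± 0.32 came with an adjusted p of 0.0394. The female value was -0.51 ± 0.32 (adjusted p = 0.364), and -0.89 ± 0.31 without the 5 libraries (adjusted p = 0.0485), so this call turns on them. With female PF AAE adolescent replicate 6, the library with the highest sum of meningeal markers, left out too, Col1a1 had -0.70 ± 0.31 (adjusted p = 0.140). Col3a1, which makes the thin fibrils around vessels, fell in males by 0.85 ± 0.30 (adjusted p = 0.0424) and had -0.74 ± 0.30 in females (adjusted p = 0.112). Its medians were 39.5 and 20.5 CPM in females and 35.4 and 22.2 in males. Col1a2, at -0.29 ± 0.32 and -0.53 ± 0.31, was not called in either sex (adjusted p = 0.663 and 0.278). Without the low-count filter the male calls for Col1a1 and Col3a1 are not made either.

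**Figure D3:**
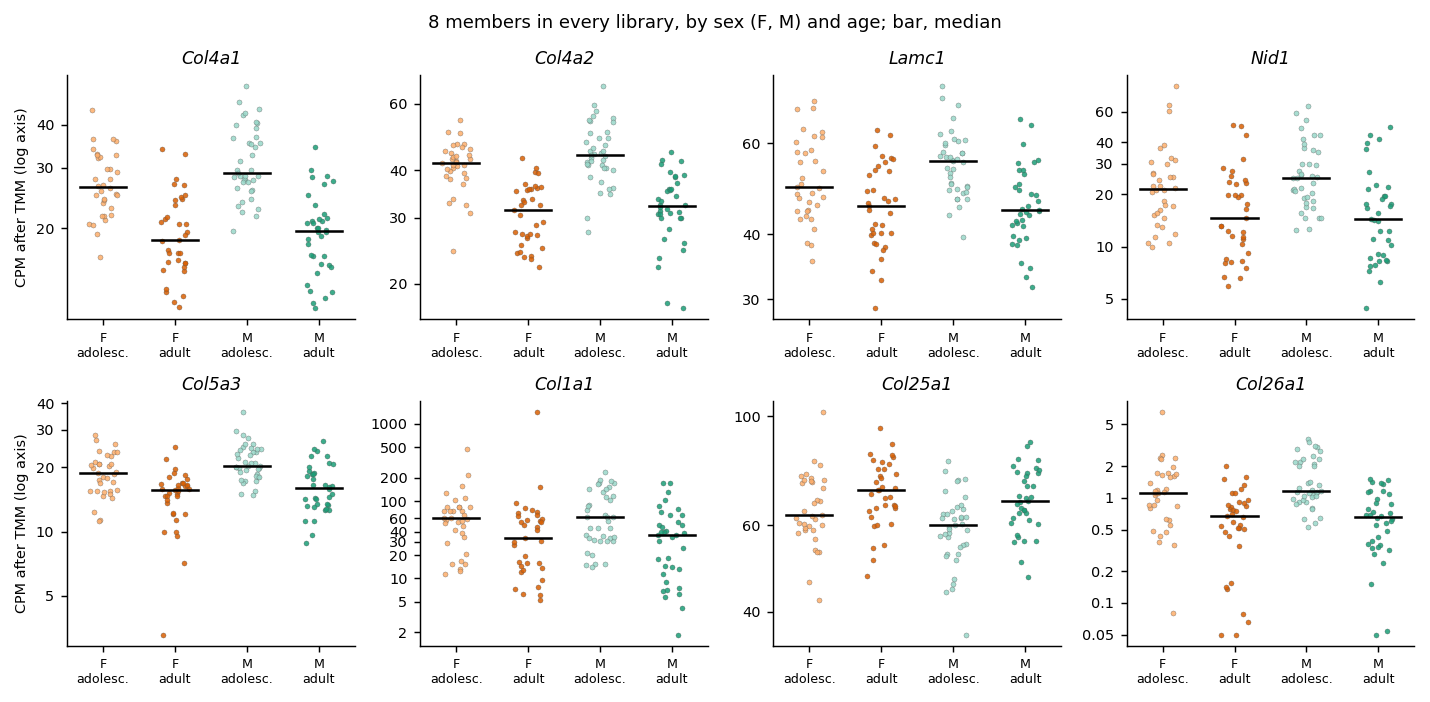
CPM after TMM on log axes for 8 members in every library, by sex and age, with a bar at the median. Col26a1 values under 0.05 are drawn at 0.05. Adult medians lie below adolescent ones in both sexes except for Col25a1, whose male medians are 59.96 and 67.2. The single adult female point at 1426 CPM of Col1a1 is the library with olfactory markers.

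The remaining classes hold the calls with the largest fold changes, most of them in genes of low level. Col26a1, a small collagen placed in the mixed network group, had median CPM of 1.12 and 0.669 in adolescent and adult females and of 1.16 and 0.659 in males. It fell by 0.95 ± 0.23 in females (adjusted p = 0.00218) and by 1.15 ± 0.22 in males (adjusted p = 5.45e-05), with a lower adult median in all 12 pairs. Col6a5 had the largest female log2 fold change of any member, -1.42 ± 0.39 (adjusted p = 0.01), and -0.85 ± 0.36 in males (adjusted p = 0.104), on a mean of 4.1 counts per library. It lies inside the annotated span of Rpl29 on the opposite strand, and without strand the reads of overlapping genes cannot be told apart. Col6a3, the long chain of collagen VI beaded filaments, fell in males by 0.89 ± 0.27 (adjusted p = 0.0143) and had -0.50 ± 0.27 in females (adjusted p = 0.278).

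Of the fibril-associated collagens, Col9a3 had median CPM of 9.14 and 7.26 in adolescent and adult females and of 11.4 and 7.48 in males. It fell by 0.46 ± 0.14 in females (adjusted p = 0.0245) and by 0.75 ± 0.14 in males (adjusted p = 2.64e-05). Col20a1 fell by 0.30 ± 0.06 in females (adjusted p = 1.73e-04) and by 0.24 ± 0.06 in males (adjusted p = 0.00174), but 5525 bases of it overlap the neuronal receptor gene Chrna4 on the opposite strand. Col25a1 rose in males by 0.20 ± 0.05 (adjusted p = 0.00679), from a median of 59.96 to 67.2 CPM, with ranges of 36.0 to 80.9 and 47.2 to 88.7. In females it had 0.10 ± 0.06 (adjusted p = 0.261). The adult median of Col25a1 was higher in 11 of the 12 pairs of groups, and no other member was called higher in adults in either sex. Across all members, 7 had a lower adult median in all 12 pairs: Col4a2, Col4a3, Col4a5, Col5a3, Col20a1, Col26a1 and Col6a5.

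The authors' deposited table, which pools the sexes, lists adjusted p under 0.05 in its comparison of adolescents with adults for 4842 of 39852 genes. Of the 57 members, the authors' deposited table gives 28 as higher in adolescents and Col25a1 alone as lower. In the authors' deposited table the log2 difference of adolescents over adults was 0.59 for Col4a1 (adjusted p = 5.74e-20), 0.45 for Col4a2 (adjusted p = 2.9e-21) and -0.15 for Col25a1. The authors' deposited table has no member past the threshold in its 5 comparisons of exposure and sex.

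Markers of vessel and meningeal cells were read beside these results. In bulk tissue, fewer cells of a type and less RNA per cell cannot be told apart. Of 9 endothelial markers in the table, 6 fell in males and none in females, with all 9 below 0 in each sex. Summed endothelial CPM ranged from 135.5 to 434 in adolescent and from 139.3 to 409 in adult females, with medians of 255 and 237, and from 166.5 to 429.6 and from 134.95 to 413 in males, with medians of 286 and 233. Of 9 mural markers 2 fell in males and none in females, with 9 below 0 in males and 6 in females. Of 14 meningeal and perivascular fibroblast markers only Pdgfra, which also marks oligodendrocyte precursors, was called lower in males, and none in females. All 14 meningeal markers were below 0 in males (median -0.14) and 7 in females (median -0.02). Their sum, mostly Ptgds, ranged from 182.5 to 5333 and from 220 to 3863 CPM in females (medians 852 and 875) and from 354 to 2586 and from 149.4 to 4401 in males (medians 816 and 647). All of these endothelial, mural and meningeal markers had counts in every library except the meningeal Crabp2, which was at 0 in 1. Red blood cell genes also fell, 5 of 6 in females and 6 of 6 in males. So did 5 of 8 oligodendrocyte genes in males, and 2 of 7 oligodendrocyte precursor genes in females and 4 of 7 in males. None of 8 choroid plexus markers was called, with 3 below 0 in females (median 0.17) and 0 in males (median 0.70). Of 6 astrocyte and of 6 neuronal markers, 1 each rose in either sex, and 1 neuronal marker fell in females. Of all genes, 9.02% were called in females and 13.1% in males. The part of any of these in the age differences of the members was not tested.

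Co-variation across libraries was measured for 5 pairs of members and for 2 class sums against the endothelial and meningeal markers. Each library was compared with the mean of its own group on a log2(CPM + 0.5) scale over all libraries, for 9 relations, with a permutation test of 100000 resamples within groups. For Col4a1 and Col4a2, Pearson's r was 0.78 and Spearman's rho 0.79 (permutation p = 1e-05 for each, the smallest it can give, and adjusted p = 1.13e-05), and r was 0.77 without the 2 farthest libraries. Within the 4 combinations of sex and age r ran from 0.65 to 0.83. Col4a5 and Col4a6 gave r = 0.72 and rho = 0.72 with the same p, and r = 0.80 without the 2 farthest. Col4a3 and Col4a4 gave r = 0.04 and rho = 0.06 (permutation p = 0.703 and 0.520) on the 6.0 mean counts of Col4a4.

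Col1a1 and Col1a2 gave r = 0.98 and rho = 0.98, and Col3a1 and its neighbour Col5a2 r = 0.71 and rho = 0.71. The summed fibrillar collagens had r = 0.82 and rho = 0.85 with the meningeal markers and r = 0.75 and rho = 0.74 with the endothelial ones. The summed basement membrane members had r = 0.83 and rho = 0.83 with the endothelial and r = 0.77 and rho = 0.76 with the meningeal markers. The permutation p of each of these was 1e-05 and the adjusted p 1.13e-05. Leaving out the 2 farthest libraries kept these 6 values of r between 0.68 and 0.98. The points of each relation share a library and its depth.

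**Figure D4:**
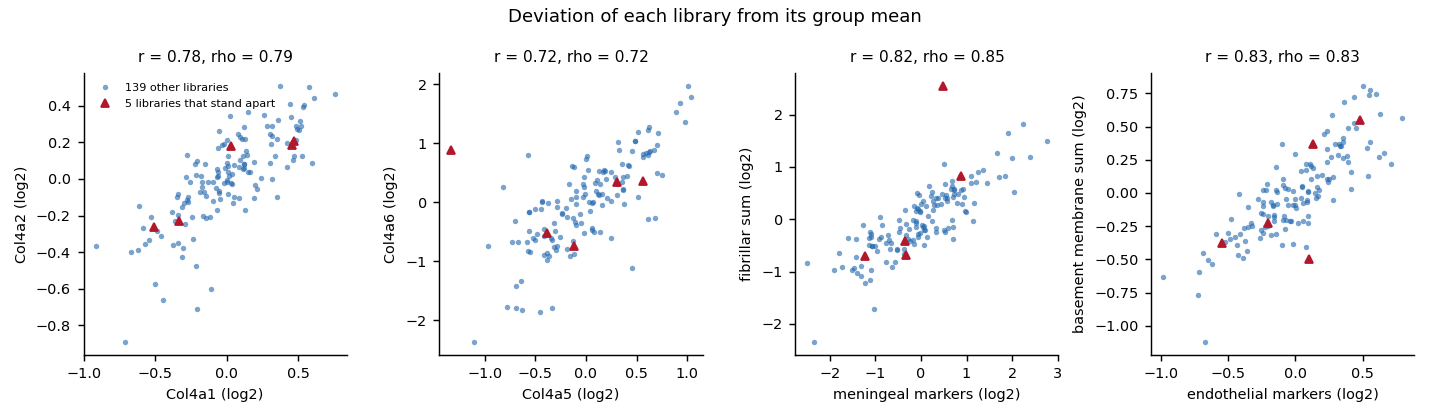
Deviation of each library from its group mean, on a log2 scale, for 2 head-to-head gene pairs and for 2 class sums against marker sums. Triangles are the 5 libraries that stand apart. The points of all 4 panels rise from lower left to upper right, and the triangle far above the others in the third panel is the library with olfactory markers.

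The second question is whether the sexes differ. No member was called between males and females at either age or for the difference of the age change between sexes, by edgeR or by DESeq2, where edgeR called 0.119% of all genes in adolescents (0.0596% higher and 0.0596% lower in males), 0.0844% in adults (0.0397% and 0.0447%) and 0.0% for the interaction. At an unadjusted p under 0.05, 5 of 55 members passed in adolescents, 2 in adults and none for the interaction, where 1190, 952 and 1063 of all 20137 genes did. The smallest p in adolescents was that of Col4a1, with males 0.22 ± 0.08 higher (adjusted p = 0.672). In adults it was that of the transmembrane Col23a1, with males 0.23 ± 0.10 higher (adjusted p = 0.980). The X-linked Col4a5 had 0.26 ± 0.12 in adolescents and -0.07 ± 0.12 in adults, not called at either age. The male log2 fold change with age lay below the female one in 39 of 55 members, against 50.5% of all 20137 genes tested. Of these members, the largest difference by p was that of Lama1, at -0.47 ± 0.24 (adjusted p = 0.946). A sex difference in the age changes of these genes was therefore not shown, although the calls in the sexes differ in number.

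The third question is whether prenatal or adolescent exposure leaves a mark. No member was called in any of 20 exposure comparisons, which set PAE against PF, PAE against FCL, PF against FCL and AAE against VEH and test the interaction of PAE against PF with AAE, within each sex and age. No gene at all was called in them either (0.0%), and no member was called by DESeq2. Of 1070 tests of members 71 (6.64%) had an unadjusted p under 0.05 by edgeR, against 4.71% over all genes, and the smallest adjusted p was 0.617. Comparisons with a shared group, such as PAE against PF and PF against FCL, are not independent.

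The smallest p belonged to Col9a3, one of the genes that fell with age, in the interaction in adult females, at -1.35 ± 0.34 (adjusted p = 0.739). Its median was 10.4 CPM in the PF AAE group (9.04 to 11.6) and 4.88 in PF VEH (4.19 to 9.20). In the PAE groups it was 5.33 with AAE (4.17 to 9.13) and 8.59 with VEH (4.85 to 12.2). The PF AAE libraries lay above all but the highest PF VEH library, and the PAE groups overlapped. Col8a1, of short-chain network collagens, had the smallest p in adult males, with PF above FCL by 0.70 ± 0.21 (adjusted p = 1) and PAE below PF by 0.78 ± 0.24 (adjusted p = 0.944), which share the PF libraries. In adolescents the smallest p was that of Col23a1 in females (PAE against PF, -0.54 ± 0.17, adjusted p = 0.961) and that of Lama4 in males (PAE against FCL, -0.34 ± 0.11, adjusted p = 0.790).

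Most other comparisons are given by their smallest p, with adjusted p from 0.685 to 1. For AAE against VEH these were Col8a1 in adolescent females (0.46 ± 0.20), Col6a6 in adult females (0.28 ± 0.15), Col25a1 in adolescent males (-0.17 ± 0.07) and Col13a1 in adult males (1.03 ± 0.41). For PAE against PF they were Col27a1 in adult females (0.38 ± 0.15) and Col1a1 in adolescent males (-0.87 ± 0.44). For PAE against FCL they were Col23a1 in adolescent females (-0.39 ± 0.17) and Col11a1 in adult males (-0.41 ± 0.23). For PF against FCL they were Col6a2 in adolescent females (0.74 ± 0.31), Col13a1 in adult females (-1.39 ± 0.46) and Col8a1 in adolescent males (-0.41 ± 0.18). For the interaction they were Col19a1 in adolescent females (0.52 ± 0.22) and Col10a1 in adolescent males (-2.13 ± 0.86).

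PF against FCL had the largest share of members at an unadjusted p under 0.05, in adult males. There 16 of 54 members (29.6%, against 4.42% of all genes) had an unadjusted p under 0.05, and the median log2 fold change was 0.28. Lama2 had 0.74 ± 0.24 and Col3a1 1.23 ± 0.57, with an adjusted p of 1 for both. In adult females 10 of 53 did (18.9%, against 6.19%), with a median of -0.31. Without the olfactory-marked FCL library and the other libraries that stood apart, 4 of 53 did (against 4.3% of all genes), with a median of -0.20. In adolescent females it was 2 of 54 (3.7%, against 5.29% of all genes), with a median of 0.17. In adolescent males it was 2 of 53 (3.77%, against 3.82%), with a median of -0.07. The difference between the sexes was not tested. The summed meningeal markers were also higher in PF than in FCL in adult males and lower in adult females: in males their medians were 1053 CPM in PF, 612 in FCL and 385.0 in PAE, and in females 490.2, 1357 and 875. They ranged from 149.4 to 4401 over adult males and from 220 to 3863 over adult females, and their part in these values was not tested.

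Col1a1 gave the smallest adjusted p of all in PAE against FCL in adult females, at -1.79 ± 0.67 (adjusted p = 0.617). Without the libraries that stood apart it was -0.69 ± 0.54. The FCL group holds the library with 1426 CPM. In adolescent males PAE against FCL had 12 of 53 members at an unadjusted p under 0.05 (22.6%, against 5.66% of all genes) with a median of -0.29. Without the libraries that stood apart it was 11 of 53 (against 5.45% of all genes). Col4a1, called in both sexes for age, stayed between -0.29 and 0.23 in the 20 comparisons, and Col4a2 between -0.27 and 0.20.

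**Figure D5:**
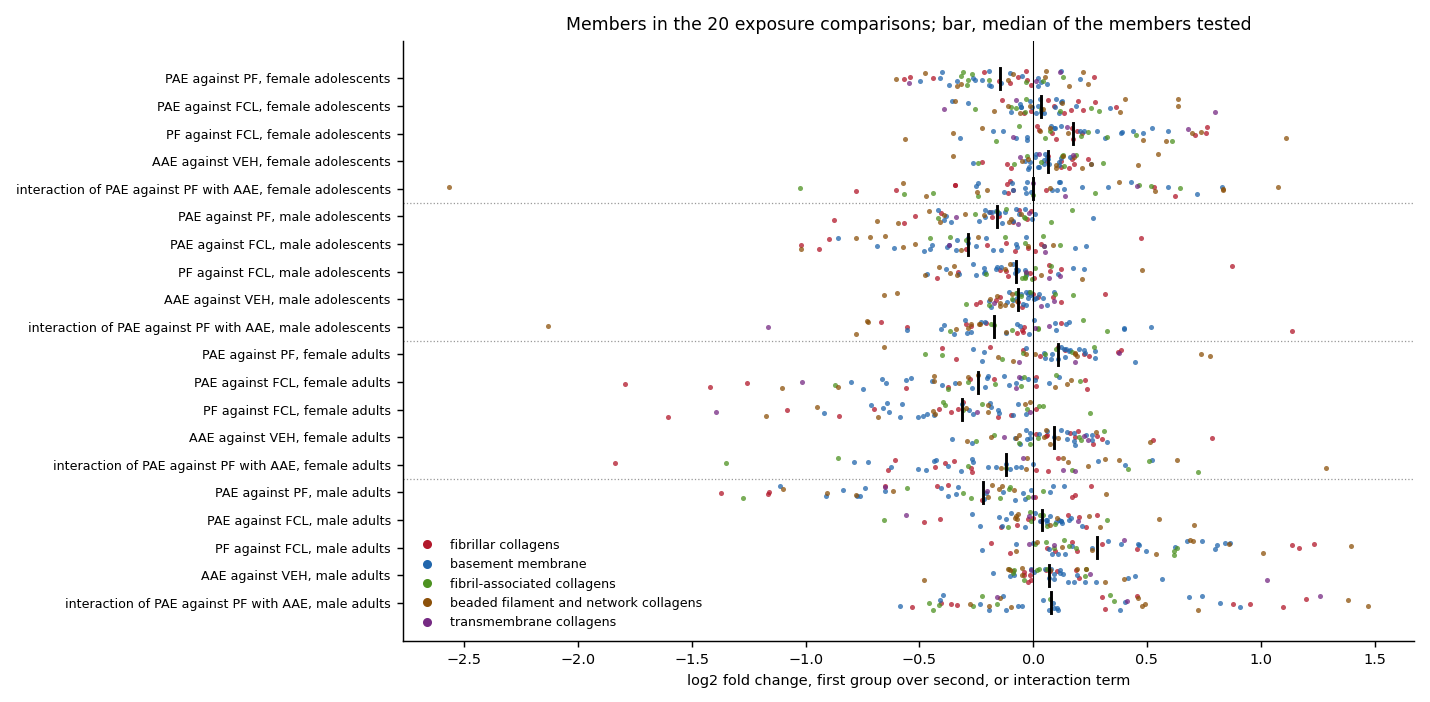
Log2 fold change, first group over second or interaction term, of every tested member in the 20 exposure comparisons, coloured by class, with a bar at the median of the members. No point has an adjusted p under 0.05. The medians run from -0.31 (PF against FCL, adult females) to 0.28 (PF against FCL, adult males).

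Genes that process, partner, bind or break down these proteins were read from 4 lists, to be set against the 9.02% of all genes called in females and 13.1% in males. Of 16 partners of the basement membrane, 3 fell and 1 rose in females, and 5 fell and 2 rose in males. Agrin (Agrn), a heparan sulfate proteoglycan, fell by 0.26 ± 0.04 in females (adjusted p = 3.33e-06) and by 0.28 ± 0.04 in males (adjusted p = 2.76e-07), from 167 ± 18.8 to 138.7 ± 18.1 CPM (SD, n = 34 and 35) and from 167 ± 15.9 to 138 ± 20.02 (SD, n = 39 and 36). The integrin ligand nephronectin (Npnt) fell by 0.53 ± 0.11 and by 0.65 ± 0.11 (adjusted p = 4.36e-04 and 2.66e-06), and fibulin 2 (Fbln2) by 0.73 ± 0.16 and by 0.84 ± 0.16 (adjusted p = 8.18e-04 and 4.21e-05). The other calls, named after their values were seen, were Pxdn and Hspg2, lower in males, Ntn4, higher in males, and Smoc1, higher in both. Perlecan (Hspg2) fell by 0.62 ± 0.18 (adjusted p = 0.0131).

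Of 26 genes of collagen processing, 3 fell and 3 rose in females, and 5 fell and 1 rose in males. The procollagen peptidase gene Adamts3 fell in both sexes, by 0.30 ± 0.05 and by 0.23 ± 0.05 (adjusted p = 2.67e-05 and 8.69e-04). The crosslinking enzyme gene Loxl4 rose in both, by 0.70 ± 0.14 and by 0.42 ± 0.14 (adjusted p = 2.25e-04 and 0.0272). Colgalt1, a collagen galactosyltransferase gene, fell by 0.16 ± 0.04 in females (adjusted p = 0.00120), and the collagen hydroxylase genes P3h1 and Plod1 fell in males by 0.34 ± 0.08 and by 0.27 ± 0.08 (adjusted p = 7.05e-04 and 0.00785). The other calls, named after their values were seen, were Bmp1, lower in both sexes, Colgalt1, lower in males too, and Colgalt2 and P3h2, higher in females.

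Of 17 matrix receptors tested, 2 were called in each sex, a share near that of all genes, and so were 2 of 18 genes of matrix breakdown. Of the receptors, the syndecans Sdc2 and Sdc4 rose in females by 0.18 ± 0.06 and by 0.20 ± 0.06 (adjusted p = 0.0231 and 0.0248), and integrin beta 1 (Itgb1) and dystroglycan (Dag1) fell in males by 0.28 ± 0.05 and by 0.19 ± 0.04 (adjusted p = 4.89e-06 and 5.27e-05). Of the breakdown genes, the proteoglycan-cleaving protease gene Adamts4 fell in both sexes, by 0.66 ± 0.17 and by 1.01 ± 0.17 (adjusted p = 0.00519 and 1.52e-06). The protease inhibitor gene Timp4 rose in both, by 0.36 ± 0.08 in each (adjusted p = 5.27e-04 and 2.62e-04). The medians of the 4 lists were -0.10, -0.15, -0.01 and -0.01 in females and -0.11, -0.22, -0.09 and -0.01 in males for processing, partners, receptors and breakdown, in that order, against -0.24 and -0.29 for the members.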

How the data were processed

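Per the file headers, the deposited table gives whole-number counts and FPKM per gene and library, and log2 fold changes and adjusted p-values of the authors' own comparisons. The submitters' processing notes name fastp and HISAT2 2.0.5, whereas counter and build were not given in the sources used here. Per the labels, random hexamers primed the cDNA, strand was not kept, and RNA integrity numbers averaged 7.2. Counts were tested with edgeR 4.0.16 in R 4.3.3: filterByExpr with a minimum count of 10, TMM scaling, robust glmQLFit and glmQLFTest, and Benjamini-Hochberg adjustment over all genes tested. Age, sex and their interaction were contrasts in 1 fit of 24 groups of equal weight, and exposures were contrasts in 4 fits by sex and age. Marker and class sums are CPM without TMM scaling. Libraries stood apart by Omp over 100 CPM, by Xist under 50 CPM in females or over 200 CPM in males, or by the fewest genes detected. All libraries carry 1 batch label. The fits were tested on simulated data. Of 366 pairs of libraries within groups, 0 were identical. DESeq2 1.42.0, RLE scaling, no filter, 2 surrogate variables (sva 3.50.0), only PF VEH and FCL VEH libraries, no libraries that stand apart and 1 library left out were tried. The members and lists were chosen with earlier results of these data known. In each class up to 8 called members with the smallest p, the main chains of collagens I, III and IV, the vessel laminins and nidogens, and up to 3 called genes per list and sex were named, and an exposure comparison without calls was described by its smallest p. Single values of 1 member are not reported here, and counts include it. Coordinates of all 57 members in the table equal those of RefSeq GRCr8, but the start used for a promoter window can lie inside them.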

Additional observations from a re-analysis of the deposited data

Results flagged for a closer look

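Summed CPM of the 11 fibrillar and of the 21 basement membrane members was checked in each of the 24 groups for a library far from the others of its group, 48 checks in all. For normally distributed values a gap that large arises in about 1 group in 20. It was found 8 times, each time at the high end. The sums were not put on a log scale and have a long high tail, and both come from the same libraries. The 8 flags are therefore not read as an excess over chance. The fibrillar sum reached 3179.28 in female FCL AAE adult replicate 1, where the next library of the group had 614.82. This is the library with olfactory markers. It reached 1520.04 in female PF AAE adolescent replicate 6, which also had the highest sum of meningeal markers (5333 CPM), and 1034.84 in female PF VEH adolescent replicate 4. Among adult females it was 641.19 in PF AAE replicate 2, against 225.71 in the next library, and 398.22 in PAE AAE replicate 1. Among males it was 597.2 in FCL AAE adult replicate 3 and 804.58 in PAE VEH adolescent replicate 7. The basement membrane sum was far from its group in 1 library, the same female PF AAE adult replicate 2, at 447.12 against 271.73.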

How the results depend on the processing

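The counts of members called for age were 11 in females and 20 in males. With 2 surrogate variables the female count rose to 26, all lower, and with only PF VEH and FCL VEH libraries it dropped to 2 in females and 7 in males, in a fit with fewer libraries. The other settings gave 13 and 21 (DESeq2), 11 and 20 (RLE scaling), 8 and 17 (no low-count filter), 16 and 22 (without the libraries that stand apart) and 12 and 22 (without female PF AAE adolescent replicate 6 as well, chosen after seeing the data). Leaving out each library in turn in groups of up to 5 gave 9 to 15 in females and 17 to 20 in males. Col4a1 and Col4a2 were called in both sexes under all of these. Lamb2 in females, at 0.0150, changed sign to -0.0415 with 2 surrogate variables and to -0.1227 with only PF VEH and FCL VEH libraries. Leaving out 1 library, it lay between -0.0155 and 0.0456, and Lama1 in females between -0.0183 and 0.1279. Counts for sex, the interaction and the exposures stayed at 0 in every setting run. Few counts per library limit Col4a4, Col6a5 and some other members. The annotated length of Col4a4 is short, at 1152 bases against 6579 for Col4a1. Whether depth or this length limits its counts was not tested. No paired analysis was possible because the labels number libraries singly, with no shared numbers.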

Other observations

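Several members are neighbours in the genome besides the head-to-head collagen IV pairs. With up to 200 kb between them, 9 pairs of neighbouring members hold 17 of the 57 genes (GRCr8). Col6a4, Col6a5 and Col6a6, chains of collagen VI, stand in a row on chromosome 8, all on the minus strand, with 33.0 kb and 10.4 kb between them. Col6a5 fell with age in females (-1.42 ± 0.39), on a mean of 4.1 counts per library, while Col6a6 had -0.11 ± 0.11. Each of Col6a4, Col6a5 and Col6a6 lies inside the annotated span of Rpl29 on the opposite strand, and strand was not kept. Col3a1 and Col5a2 end towards each other on chromosome 9 with 38.2 kb between them, and both fell in males. Col6a1 and Col6a2, 97.1 kb apart on chromosome 20, had -0.13 ± 0.10 and -0.33 ± 0.17 in males, and neither was called. Whether neighbours differ from each other in their age change was not tested.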
